A study of Mus musculus with 8 samples.

Results

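Of the 22013 genes in the deposited expression table, 83 encode histones. They were chosen by symbol alone, as all genes whose names belong to the H1, H2A, H2B, H3 or H4 families, to the macroH2A or H2A.Z variants, or to the centromeric histone Cenpa. They fall into 68 replication-dependent genes, the members of the histone gene clusters, and 15 replacement or other variant genes, set apart by name. In M21 positions 2 of the 15, H3f4 and H2aj, lie beside cluster genes on chromosomes 11 and 6. The expression table came from poly(A)-selected RNA of mouse blastocysts produced by in vitro fertilisation, in 8 libraries of 5 pooled embryos each. Embryos were wild type on the outbred ICR background, with oocytes from superovulated females 6 to 8 weeks old and sperm from males 8 to 10 weeks old, and all were cultured in KSOM medium under low oxygen. In the agomir group (4 libraries), miR-21-5p agomir, a modified double-stranded mimic of that microRNA, was in the medium at 50 nM from fertilisation to the blastocyst, for about 75 hours. In the blank control group (4 libraries) the medium held the vehicle with no oligonucleotide, so the presence of an oligonucleotide and its sequence cannot be told apart. The labels place the 8 libraries in a single batch and do not say which pools shared a fertilisation.

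Replication-dependent histone genes supply the bulk histones that wrap newly copied DNA. Their mRNAs are the known exception among animal mRNAs in that they normally end in a conserved stem-loop in place of a poly(A) tail; the stem-loop is bound by SLBP and cut with the help of the U7 small nuclear ribonucleoprotein. Replacement variants such as H2A.Z and H3.3 are made throughout the cell cycle from ordinary polyadenylated mRNAs. Poly(A) selection therefore keeps the messages of these 2 sets with different efficiency, and the values below are levels in polyadenylated RNA, not of total histone mRNA.

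The stem-loop normally marks mRNAs of the replication-dependent set, but the 2 sets here were split by name. Stem-loop sequences were read from GENCODE M21 transcripts of each gene, as a stem of 6 base pairs closed by a loop of 4 bases. The search used GGNNCTNTTNNNNNCC on the sense strand, kept only where the 6 stem bases on each side pair. A match was found in 44 of the 68 replication-dependent genes and in 1 of the 15 replacement genes, H2ax. Over all genes of the table with an M21 transcript, 54 of 21827 (0.247%) held one. Among replication-dependent genes without a match, 12 have an M21 transcript from an ATG to a stop codon in a whole number of codons. These were taken as coding sequence alone, and include H2bc26, which M21 types as a pseudogene. The search could not reach past the coding sequence in these. Among the 12 others, the transcripts of H2ac12 and H2ac10 have 405 and 399 bases, near the 393 of H2ac13, taken as coding sequence alone. A missing match thus does not show that a gene lacks a stem-loop. The stem-loops below belong to the replication-dependent gene with the highest level, to its near-identical copy, to genes of the other classes and to H2ax. Capitals mark the stem and loop, with up to 5 flanking bases in lower case.

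H2ac24 (chr13:21833026-21833049, minus strand, GRCm38): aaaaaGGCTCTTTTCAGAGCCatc

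H2ac23 (chr13:21810893-21810918, plus strand, GRCm38): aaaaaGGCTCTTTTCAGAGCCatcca

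H2ac8 (chr13:23570663-23570688, minus strand, GRCm38): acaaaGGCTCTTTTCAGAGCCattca

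H1f2 (chr13:23739507-23739532, plus strand, GRCm38): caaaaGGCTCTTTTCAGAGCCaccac

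H2bc12 (chr13:22036295-22036320, plus strand, GRCm38): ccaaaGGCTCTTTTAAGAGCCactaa

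H4c4 (chr13:23581945-23581970, plus strand, GRCm38): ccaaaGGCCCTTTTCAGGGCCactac

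H2ax (chr9:44335235-44335260, plus strand, GRCm38): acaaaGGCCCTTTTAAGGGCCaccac

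The core of H2ac24, stem and loop together, was shared by 26 genes of the H1, H2A, H2B and H3 classes and by 0 H4 genes. The core of H4c4 occurred in 7 genes, all of the H4 class, and 2 further cores, in 2 genes each, made up the 4 other H4 genes with a match. The core of H2bc12, with the same stem as H2ac24 but another loop, was found in 6 genes of the H1, H2B and H3 classes. In M21 positions, 54 of the 68 replication-dependent genes lie on chromosome 13, 10 on chromosome 3, 3 on chromosome 11 and 1 on chromosome 6.

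Replacement variants had the higher levels. In FPKM, which scales counts to transcript length and library total, the mean over the 8 libraries had a median of 54.7 over the 15 replacement genes and of 2.1 over the 68 replication-dependent genes. Only 13 replication-dependent genes reached a mean of 5 FPKM, against 9 of the 15 replacement genes. The H2A.Z gene H2az1 was highest at 5718 FPKM and ranked 13 among all 22013 genes. A single replication-dependent gene came near this range, H2ac24 at 1030.4 FPKM (rank 149), and the next, H2ac8, was at 61.7 FPKM.

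**Figure D1:**
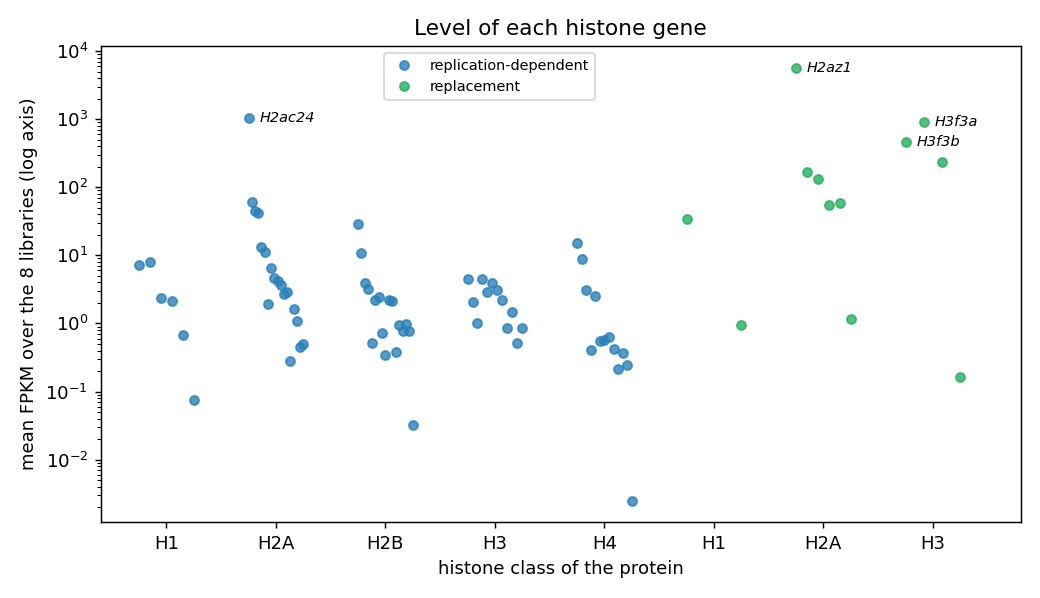
Mean FPKM of each histone gene over the 8 libraries on a log axis, with replication-dependent genes (blue) and replacement variants (green) arranged by the histone class they encode; the 5 genes at 0 in every library are not drawn. H2ac24 at 1030.4 FPKM stands above all other replication-dependent genes, and H2az1, H3f3a and H3f3b lead the replacement variants.

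A count was listed in 73 to 77 of the 83 genes in each library. The 5 genes at 0 in all 8 libraries have a limit of 0.139 to 0.233 CPM per library, which 3 counts would give and which covers counting error only. CPM are counts scaled to a common library total, here adjusted by TMM. Those 5 were H1f8, the oocyte linker histone, H1f7 and H1f9, which are linker histones of spermatids, H2bc1, the testis H2B, and H2bc26, annotated in M21 as a pseudogene. After the filter on low counts, 48 replication-dependent and 11 replacement genes were tested, 59 in all. The 20 replication-dependent genes that were not tested stayed at or below 1.39 CPM in every library, and the 4 untested replacement genes at or below 0.298 CPM.

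Blastocyst markers were present: the 5 trophectoderm markers had means of 54.9 to 1357 CPM and the 3 inner cell mass markers 4.67 to 125 CPM. All 5 trophectoderm markers had a log2 fold change above 0 (median 0.59), 2 of them (Gata3 and Eomes) at an unadjusted p under 0.05. All 3 inner cell mass markers had a log2 fold change below 0 (median -0.54). Of the 3 primitive endoderm markers, 1 was above and 2 were below 0 (median -0.02). Of these markers 0 passed the false discovery rate of 0.05 (edgeR quasi-likelihood test). Over all tested genes, 50.6% had a log2 fold change above 0, and 2.64% were higher at an unadjusted p under 0.05 in the same test. Summed trophectoderm markers ranged from 2017 to 6925 CPM in agomir libraries and from 1767 to 3466 CPM in controls, and summed inner cell mass markers from 103 to 185 CPM in agomir libraries and from 117 to 245 CPM in controls. Agomir 3 held the highest trophectoderm sum, with the keratin genes Krt8 at 2907 CPM and Krt18 at 3539 CPM. Summed oocyte markers reached 6.34 to 8.60 CPM in agomir libraries and 3.16 to 7.68 CPM in controls, summed cumulus and granulosa markers 1.11 to 3.38 CPM in agomir libraries and 1.63 to 3.99 CPM in controls, and summed sperm markers 0.436 to 0.725 CPM in agomir libraries and 0.512 to 1.44 CPM in controls. A single marker of each of these lists was at 0 throughout (H1f8 of 8, Cyp19a1 of 8 and Akap4 of 6). Total counts ranged from 12246102 to 23147449 per library. Control 2 stood apart on the first principal component of all tested genes (26.2% of variance) and agomir 3 on the second (21.6%). Mitochondrially encoded genes took 4.87% to 9.86% of counts in agomir libraries and 6.997% to 8.25% in controls. In libraries made from whole embryos, fewer cells of a type and less RNA per cell cannot be told apart.

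In the comparison of agomir with control, 0 of 12366 genes passed a false discovery rate of 0.05 (edgeR quasi-likelihood test, Benjamini-Hochberg), a background of 0%, and 0 of the 59 histone genes did. The smallest adjusted p of a histone gene was 0.678. At an unadjusted p under 0.05, 1 histone gene was higher with the agomir (H1f0), where 2.64% (326) of all tested genes were, and 2 were lower (H2ac23 and H3c13), where 3.74% (463) of all tested genes were. DESeq2 was run without the edgeR filter on low counts, over the 18312 genes with a rounded count above 0, 77 of them histone genes. Its default settings can leave genes of low mean count without an adjusted p, and their number is not given here. DESeq2 called 34 genes (0.186% of the 18312), of which 0 were histone genes, and limma on FPKM called 0 genes. In 1 histone gene, H1f4, every agomir library lay above every control (1.42% of all tested genes), and in 0 histone genes every agomir library lay below every control (2.47% of all tested genes).

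**Figure D2:**
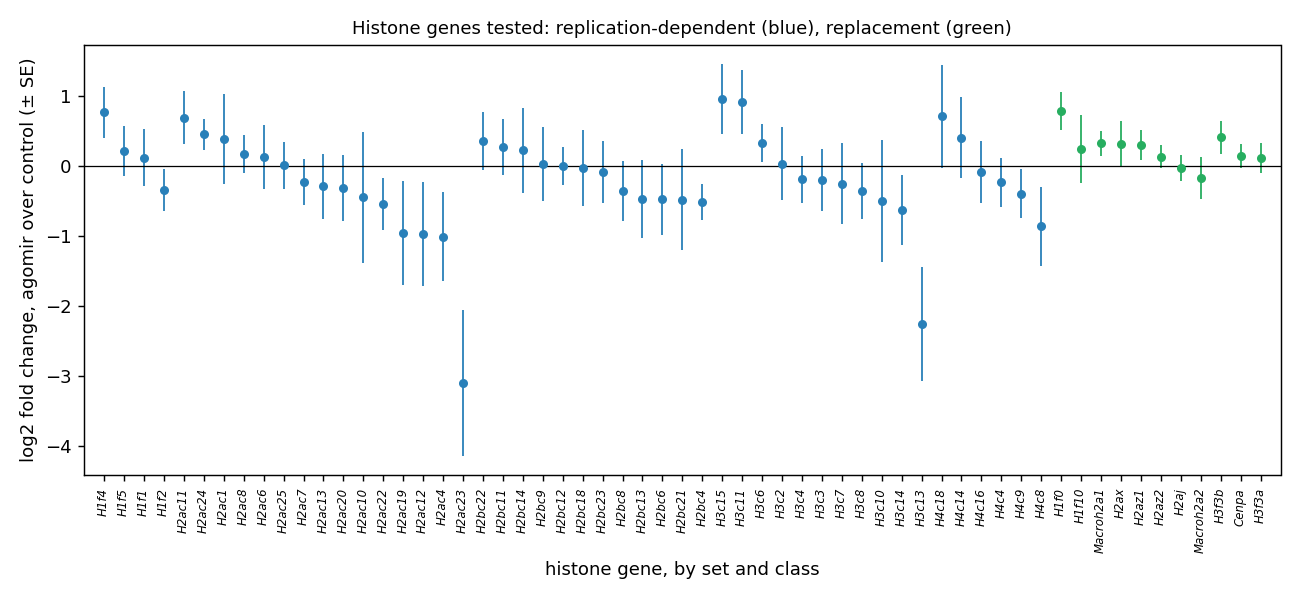
Log2 fold change of agomir over control for the 59 tested histone genes, with bars of 1 standard error, replication-dependent genes in blue and replacement variants in green, grouped by class. The replacement variants lie between -0.18 and 0.78 and the replication-dependent genes between -3.10 and 0.95, with H2ac23 and H3c13 lowest.

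Among tested replacement variants 9 of 11 had a log2 fold change above 0, and among tested replication-dependent genes 19 of 48 had one, where 50.6% of all tested genes did. The median log2 fold change was 0.24 for the replacement variants, -0.20 for the replication-dependent genes and 0.0048 for all tested genes. The direction of the replication-dependent genes depended on 1 library: without control 4, 26 of the 48 were above 0 and their median was 0.04. Replication-dependent genes also varied more within the groups. The median within-group SD of log2 CPM was 0.57 for the 48 replication-dependent genes, 0.25 for the 11 replacement variants and 0.39 for all tested genes. The 2 sets also differ in level: 7 of the 68 replication-dependent genes had a mean of at least 10 CPM, against 9 of the 15 replacement genes. The part of level in this difference in spread was not tested.

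The H2A.Z genes come first among the replacement variants. H2A.Z marks nucleosomes around transcription start sites, and H2az1 is essential for early mouse development. H2az1 had 7187, 6617, 6079 and 7097 CPM in agomir libraries 1 to 4 and 5524, 3873, 5706 and 6815 CPM in controls 1 to 4. The lowest value was control 2, and control 4 lay inside the agomir range, so the groups overlapped. The log2 fold change was 0.30 ± 0.21 (SE; edgeR quasi-likelihood test, adjusted p = 0.83), and 0.17 without control 2. H2az1 alone made up 64.7% to 73.4% of the summed CPM of replacement variants in agomir libraries and 63.1% to 72.5% in controls. Of its 150-base stretches, the read length of these libraries, 25.9% also occur in another gene, which is no histone gene of the set. Its paralog H2az2 was far lower, at 131 FPKM, with 133, 103, 136 and 102 CPM with the agomir and 101, 106, 104 and 121 CPM in controls. The 2 sets of libraries interleaved, at a log2 fold change of 0.13 ± 0.16 (SE) that turned negative when FPKM were fitted with limma (-0.05 at both pseudocounts tried).

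H3.3 is encoded by 2 genes with the same protein product, H3f3a and H3f3b, and replaces H3 outside of S phase. H3f3a had 820.0, 580.2, 955 and 994 CPM in agomir libraries and 739, 677, 707 and 971 CPM in controls. Agomir 2 was the lowest library and agomir 4 the highest, so the controls lay within the agomir range; the log2 fold change was 0.11 ± 0.21 (SE), with a range of 0.03 (without agomir 4) to 0.26 (without agomir 2) when single libraries were left out, and -0.01 with counts scaled to library totals. H3f3b had 773, 1092, 1552 and 816 CPM in agomir libraries and 696, 913, 811 and 772 CPM in controls. Agomir 2 and 3 were above every control, and agomir 1 and 4 lay inside the control range. For H3f3b the log2 fold change was 0.41 ± 0.23 (SE), and 0.17 without agomir 3. In the authors' FPKM H3f3a was the higher of the pair. H3f3b made up 29.1%, 44.8%, 41.8% and 25.7% of their summed FPKM in agomir libraries and 29.1%, 38.1%, 33.1% and 25.7% in controls. The length implied by the counts and FPKM of H3f3a, 848 bases, matched no M21 transcript within 1%. The order of the pair depends on that length, and in CPM H3f3b made up 44.3% to 65.3% over the 8 libraries. In both units the share was higher in libraries 2 and 3 of each group than in libraries 1 and 4, although the numbers carry no pairing in the labels.

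Cenpa, which replaces H3 at centromeres, was at 232 FPKM. Its levels were 272, 249, 182 and 241 CPM in agomir libraries and 198, 193, 239 and 222 CPM in controls. Agomir 3 was the lowest of all 8 libraries and agomir 1 the highest, and the log2 fold change was 0.15 ± 0.17 (SE), 0.07 without agomir 1 and 0.26 without agomir 3. H3f4, typed in M21 as a pseudogene, was at 0.165 FPKM and was not tested.

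H2ax encodes the H2A variant that is phosphorylated beside DNA breaks. It is the replacement gene with a stem-loop, printed above, and its annotated transcript continues 822 bases past it. H2ax had 365, 277, 113 and 256 CPM in agomir libraries and 172, 141, 197 and 300.3 CPM in controls. Agomir 1 was the highest library and agomir 3 the lowest, a range that contained all controls, at a log2 fold change of 0.32 ± 0.32 (SE). Leaving out single libraries gave 0.09 (without agomir 1) to 0.58 (without control 4). Agomir 3 thus held the lowest H2ax, Cenpa and, among agomir libraries, H2az1 values, together with the highest H3f3b, Macroh2a1, H1f0 and summed trophectoderm marker values. The part of the marker level in these histone values was not tested.

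The macroH2A genes encode H2A variants with a large globular domain, known from the inactive X chromosome. Macroh2a1 had 109, 121, 164 and 100.1 CPM in agomir libraries and 93.4, 108, 100.3 and 92.3 CPM in controls. Agomir 3 was the highest, agomir 4 lay between controls, and the log2 fold change was 0.33 ± 0.18 (SE), and 0.16 without agomir 3. Macroh2a2 was near the lower end, at 1.17 FPKM, with 2.41, 2.22, 2.54 and 2.32 CPM with the agomir and 3.02, 2.46, 3.02 and 2.23 CPM in controls. These ranges overlapped at a log2 fold change of -0.18 ± 0.30 (SE), and of -0.10 without control 3. H2aj, an H2A variant outside the main clusters, had 49.5, 45.1, 56.3 and 44.1 CPM in agomir libraries and 47.4, 63.6, 39.4 and 48.8 CPM in controls. Both extremes were controls, and the log2 fold change was -0.03 ± 0.18 (SE).

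H1f0 is the linker histone H1.0, known for its rise in cells that leave the cell cycle or differentiate. H1f0 had 77.8, 76.4, 152 and 57.1 CPM in agomir libraries and 44.0, 59.4, 50.2 and 57.9 CPM in controls. Agomir 1, 2 and 3 were above every control, with agomir 3 furthest up, and agomir 4 lay inside the control range. The log2 fold change was 0.78 ± 0.27 (SE; edgeR quasi-likelihood test, unadjusted p = 0.014, adjusted p = 0.678). Without agomir 3 it was 0.42. H1f10, encoding the linker histone H1X, was at 0.958 FPKM, with 0.904, 0.966, 0.848 and 2.42 CPM in agomir libraries and 0.776, 0.882, 1.44 and 1.24 CPM in controls. Agomir 4 alone put the agomir mean above the control mean: the log2 fold change was 0.24 ± 0.49 (SE) and -0.26 without that library.

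**Figure D3:**
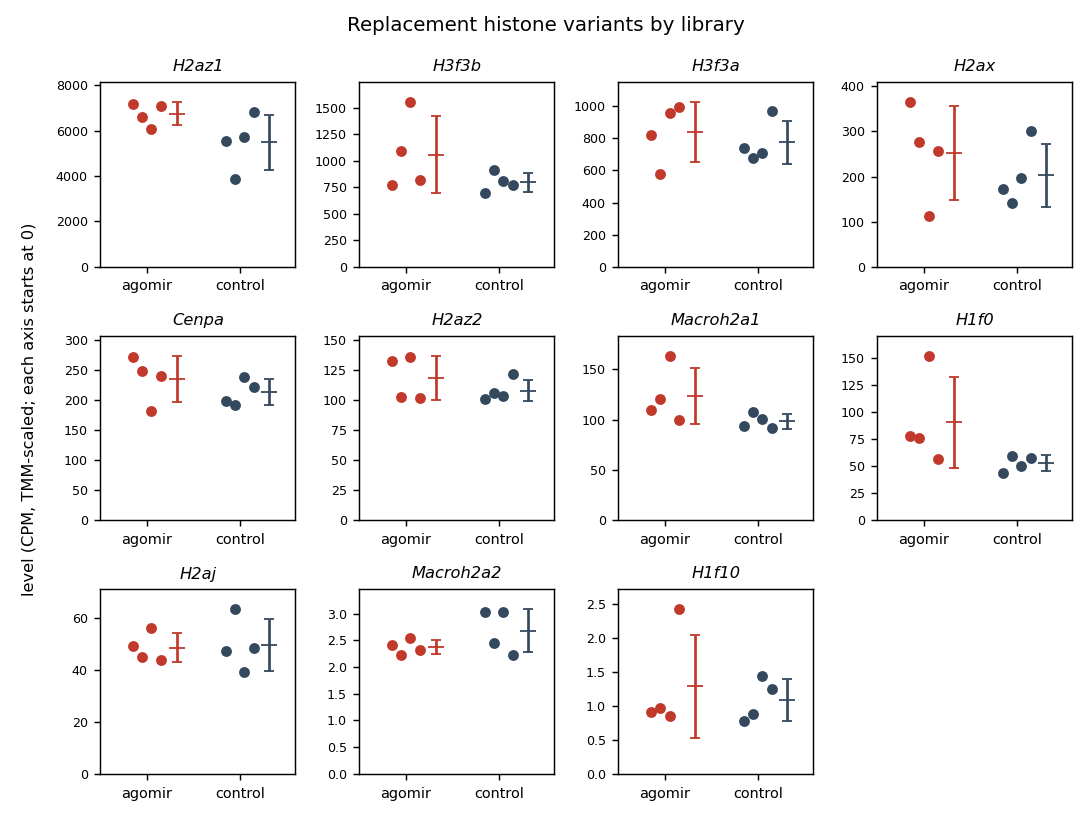
Level of the 11 tested replacement variants in each library (CPM, linear axes from 0), agomir libraries 1 to 4 left of controls 1 to 4; the bar beside each group is the mean ± SD (n = 4). In H1f0 agomir 3 stands at 152 CPM, and in every panel the 2 groups overlap.

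Among replication-dependent genes, H2A genes took most of the signal, and within H2A a single gene, H2ac24. H2ac24 (Hist1h2ap in older naming) had 438, 490.1, 706 and 696 CPM in agomir libraries and 339, 405, 394 and 568 CPM in controls. Agomir 3 and 4 were above all controls, and agomir 1 and 2 were above all controls but control 4. Its log2 fold change was 0.45 ± 0.22 (SE; edgeR quasi-likelihood test, unadjusted p = 0.0648, adjusted p = 0.793). H2ac24 made up 70.3%, 68.2%, 73.5% and 77.5% of the summed CPM of the 68 replication-dependent genes in agomir libraries and 59.9%, 61.6%, 69.2% and 62.5% in controls. Agomir 1, 3 and 4 exceeded all controls in this share, and agomir 2 lay just under control 3.

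How the authors' counting divided reads between copies is not stated in the sources used here, and H2ac24 has close copies. Of its 150-base stretches 91% also occur in other genes, of which 9 are H2A genes of the set. The nearest copy is H2ac23, the second stem-loop printed above, which holds 91% of the stretches of H2ac24. H2ac23 had 1.355, 0.0483, 0.121 and 0.145 CPM in agomir libraries (27, 1, 2 and 3 counts) and 2.87, 0.232, 2.37 and 9.14 CPM in controls (37, 5, 51 and 184 counts). Agomir 2, 3 and 4 were below every control and agomir 1 was above control 2, a spread of 189-fold over the 8 libraries. Its log2 fold change was -3.10 ± 1.04 (SE; edgeR quasi-likelihood test, unadjusted p = 0.0113, adjusted p = 0.678); it was -5.05 without agomir 1 and -2.09 without control 4. H2ac23 and H2ac24 summed to 439, 490.2, 706 and 696 CPM in agomir libraries and 342, 405, 396 and 577 CPM in controls. H2ac23 took at most 0.309% of that sum in agomir libraries and 1.58% in controls, so the sum followed H2ac24.

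Other H2A genes were an order lower. H2ac8, whose annotated transcript runs 151 bases past the stem-loop, had 48.8, 58.2, 48.3 and 28.0 CPM in agomir libraries and 28.4, 41.5, 33.2 and 59.8 CPM in controls. Both groups spanned nearly the same range, at a log2 fold change of 0.17 ± 0.27 (SE) that ranged from 0.03 (without control 1) to 0.42 (without control 4). Of its 150-base stretches 24.5% are shared. H2ac12 had 6.07, 12.3, 16.7 and 13.2 CPM in agomir libraries and 24.3, 32.8, 0.93 and 36.4 CPM in controls. Control 3 was the lowest library, and the other 3 controls were above every agomir library. Its log2 fold change was -0.97 ± 0.74 (SE; edgeR quasi-likelihood test, adjusted p = 0.849), and -1.37 without control 3 (adjusted p = 0.294). H2ac13 showed the same low value in control 3, with 12.2, 17.7, 18.5 and 10.9 CPM with the agomir and 15.2, 24.6, 3.58 and 29.2 CPM in controls. Its log2 fold change was -0.29 ± 0.47 (SE) and 0.04 without control 4. H2ac12 and H2ac13 share 84.8% and 86.1% of their stretches with other genes, and the part of read division among copies in these values was not tested. H2ac11 shares 65.5% of its stretches with other genes and holds 64% of the stretches of H2ac24. The part of read division in its values was not tested either. H2ac11 had 3.46, 6.96, 10.1 and 11.9 CPM in agomir libraries and 2.87, 5.25, 5.07 and 6.75 CPM in controls. Agomir 2, 3 and 4 were above all controls and agomir 1 was within their range, at a log2 fold change of 0.69 ± 0.38 (SE; edgeR quasi-likelihood test, adjusted p = 0.81), and of 0.45 without agomir 4.

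Linker histone genes of the clusters bind DNA between nucleosomes. H1f2 had 5.57, 8.21, 12.2 and 13.7 CPM in agomir libraries and 8.30, 15.05, 12.8 and 14.1 CPM in controls, and 0% of its stretches are shared. Agomir 1 and 2 were the lowest libraries, agomir 3 and 4 lay among the controls, and the log2 fold change was -0.34 ± 0.30 (SE), -0.14 without agomir 1 and -0.54 without agomir 4. H1f4 shares 19.5% of its stretches with other genes. It had 6.88, 4.88, 5.63 and 5.76 CPM in agomir libraries and 1.24, 3.39, 4.37 and 4.47 CPM in controls. The counts behind these values were 137, 101, 93 and 119 with the agomir and 16, 73, 94 and 90 in controls. Every agomir library was above every control. The log2 fold change was 0.77 ± 0.36 (SE; edgeR quasi-likelihood test, unadjusted p = 0.0552, adjusted p = 0.792) and 0.51 without control 1.

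In the H2B, H3 and H4 classes, mean levels of single genes were at most 28.7, 4.48 and 14.9 FPKM, in that order. H2bc4, the highest H2B gene at 28.7 FPKM, had 31.0, 30.8, 23.6 and 22.9 CPM in agomir libraries and 51.2, 22.2, 32.5 and 49.3 CPM in controls. Controls 1, 3 and 4 were above every agomir library and control 2 was below them all, at a log2 fold change of -0.52 ± 0.26 (SE; edgeR quasi-likelihood test, unadjusted p = 0.07, adjusted p = 0.797). H4c4, the highest H4 gene at 14.9 FPKM and free of shared stretches, had 11.1, 16.9, 23.6 and 10.99 CPM in agomir libraries and 10.1, 20.4, 13.9 and 29.1 CPM in controls. Both the lowest and the highest library were controls, and the log2 fold change was -0.24 ± 0.34 (SE), or 0.08 without control 4. H3c13 had 0.201, 0.0966, 0.0606 and 0.629 CPM in agomir libraries (4, 2, 1 and 13 counts) and 0.776, 0.232, 1.77 and 2.09 CPM in controls (10, 5, 38 and 42 counts). Agomir 4 was above control 2 and the other agomir libraries were below every control. The log2 fold change was -2.25 ± 0.82 (SE; edgeR quasi-likelihood test, unadjusted p = 0.0172, adjusted p = 0.678). H3c13 shares 73.7% of its stretches with each of H3c14 and H3c15. The 3 together summed to 2.31, 1.16, 3.39 and 4.70 CPM in agomir libraries and 3.96, 2.83, 4.65 and 4.87 CPM in controls, ranges that overlapped.

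**Figure D4:**
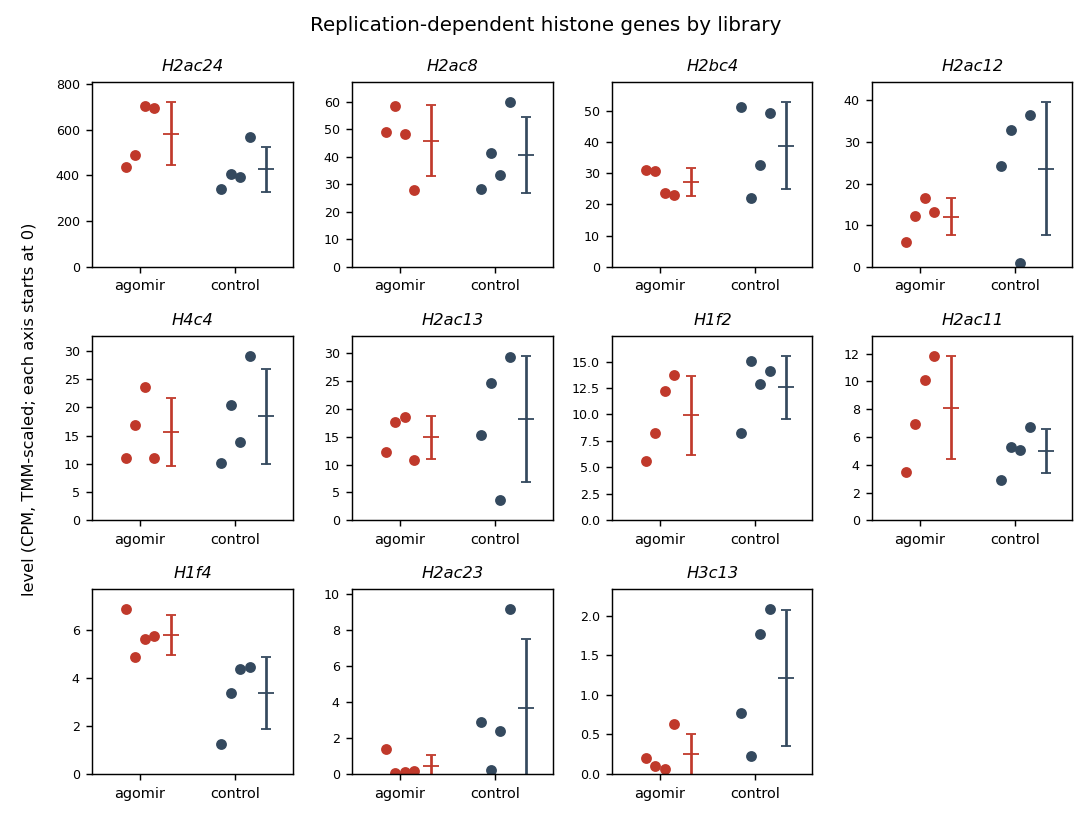
Level of 11 replication-dependent genes in each library (CPM, linear axes from 0), agomir libraries 1 to 4 left of controls 1 to 4; the bar beside each group is the mean ± SD (n = 4), ending at 0 where the SD exceeds the mean. H2ac12 and H2ac13 are lowest in control 3, and H1f4 is the panel in which the groups do not overlap.

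Since copies share reads, sums over a class are less exposed to that division. The 68 replication-dependent genes summed to 623, 718, 959.9 and 897 CPM in agomir libraries and 565, 657, 569.6 and 908 CPM in controls, or 799.5 ± 156 CPM with the agomir and 675 ± 161 CPM in controls (SD, n = 4 each). Control 4 lay between the 2 highest agomir libraries, so the groups overlapped. The log2 ratio of the means was 0.24 with H2ac24 and -0.20 without it. The sum without H2ac24 keeps H2ac23 and H2ac11, which hold 91% and 64% of its stretches, so it is more exposed to read division. The part of read division in this change of sign was not tested. The 15 replacement variants summed to 9790.3, 9164, 9393 and 9712 CPM in agomir libraries and 7619, 6137, 7959 and 9404 CPM in controls, or 9515 ± 290.4 CPM with the agomir and 7779.7 ± 1341 CPM in controls (SD, n = 4 each). Controls 1, 2 and 3 were below every agomir library and control 4 was inside their range. The log2 ratio was 0.29 for TMM-scaled counts, 0.19 for shares of library totals and 0.18 for summed FPKM.

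By class, the sums of replication-dependent genes overlapped between groups in all 5. The 18 H2A genes summed to 526, 602, 823 and 782 CPM in agomir libraries and 429, 535, 459 and 746 CPM in controls. The 19 H2B genes summed to 46.6, 50.2, 40.3 and 43.5 CPM in agomir libraries and 73.4, 37.2, 47.5 and 71.9 CPM in controls, with controls 1 and 4 highest. The H1, H3 and H4 sums ranged over 18.9 to 29.9, 13.7 to 23.99 and 17.7 to 42.9 CPM in agomir libraries and over 16.4 to 30.7, 15.5 to 21.4 and 23.6 to 43.8 CPM in controls. The core histones enter nucleosomes in equal numbers, whereas in this polyadenylated RNA the summed FPKM of H2A genes was 1069 to 1478 in agomir libraries and 929 to 1476 in controls, and that of each of the H2B, H3 and H4 classes at most 65.98 in agomir libraries and 86.4 in controls. Without H2ac24 the H2A sum was 87.8, 112, 117 and 86.3 CPM in agomir libraries and 90.6, 129.7, 64.8 and 178 CPM in controls. That sum keeps the near-copies H2ac23 and H2ac11, and the part of read division in it was not tested.

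**Figure D5:**
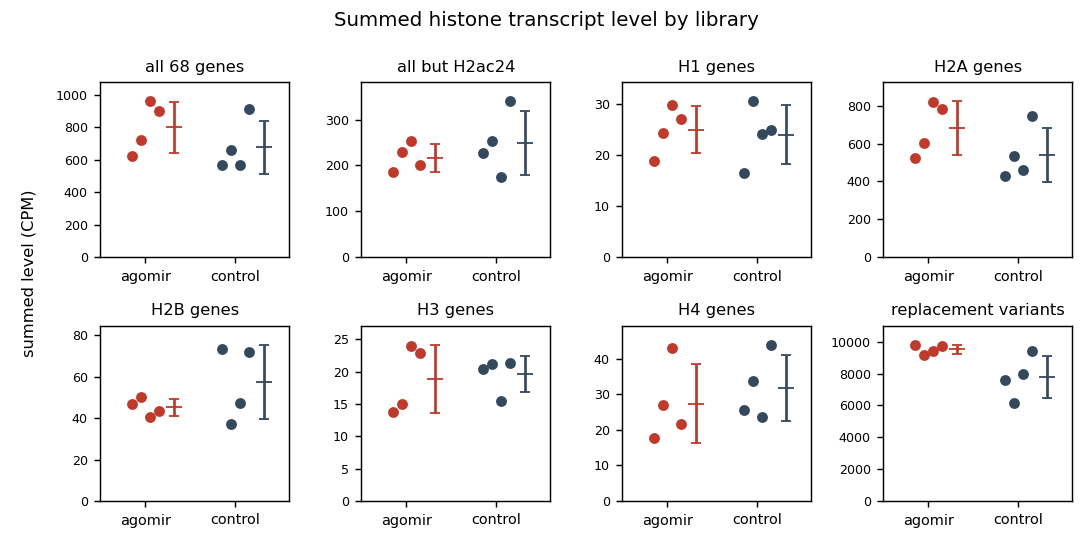
Summed level of replication-dependent genes, in all, without H2ac24 and by class, and of the replacement variants, in each library (CPM, linear axes from 0), agomir libraries 1 to 4 left of controls 1 to 4; the bar beside each group is the mean ± SD (n = 4). Groups overlap in every panel, and the mean of all 68 genes is higher with the agomir only while H2ac24 is included. The sum without H2ac24 keeps its near-copies and is exposed to how reads were divided among them.

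The ratio of the 2 sets overlapped between groups. Replication-dependent genes had 6.36%, 7.84%, 10.2% and 9.24% of the replacement sum in CPM in agomir libraries and 7.42%, 10.7%, 7.16% and 9.66% in controls. In summed FPKM the range was 13.03% to 22.5% in agomir libraries and 14.4% to 22.99% in controls. The replication-dependent genes took 0.0629% to 0.0843% of all counts in agomir libraries and 0.0576% to 0.0878% in controls. The difference in the mean log2 ratio of the 2 sets, agomir minus control, was -0.06, and its sign varied with the library left out (-0.16 to 0.07).

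The annotated 3' ends differ among the replication-dependent genes, as the M21 transcripts show; the groups and the 60-base limit were chosen after the levels were known. Of the 68, 21 end 3 to 57 bases past the stem-loop and 23 run 74 to 4884 bases past it. Another 12 were taken as coding sequence alone and 12 have no match. The hexamer AATAAA, the main polyadenylation signal, lies in the last 50 bases of 0 of the 21, 9 of the 23, 0 of the 12 and 4 of the 12. Median levels were 2.87, 0.859, 1.87 and 1.81 FPKM, in the same order. H2ac24 belongs to the first group: its annotated 482-base transcript ends 3 bases past the stem-loop, without the hexamer. H2ac8 and H1f2, in the second, end 151 and 840 bases past it with the hexamer. FPKM depends on the length the authors used, and the length implied by counts and FPKM matched an M21 transcript within 1% for 66 of the 78 histone genes with a count. H3f3a, Cenpa, H2az2 and H2aj were among the 12 that did not match.

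Genes that make, cut and load histones were measured in the same libraries. Of 20 genes for histone mRNA 3' processing and turnover, 11 were above and 9 below 0 in log2 fold change, with 0 past the false discovery rate (edgeR quasi-likelihood test). Slbp, whose product binds the stem-loop, had 114, 139, 263 and 152 CPM in agomir libraries and 134, 127, 151 and 126 CPM in controls, with agomir 3 apart from the rest. Upf1, a helicase needed for the decay of histone mRNA, had 9.84, 20.5, 3.09 and 6.05 CPM in agomir libraries and 4.03, 2.79, 6.79 and 4.02 CPM in controls, with agomir 1 and 2 highest; its log2 fold change was 1.16 ± 0.50 (SE; edgeR quasi-likelihood test, unadjusted p = 0.0371, adjusted p = 0.752). Of 12 genes for histone gene transcription 8 were above and 4 below 0, and of 30 tested histone chaperones 23 were above and 7 below 0, where 50.6% of all tested genes were above 0. All were short of the false discovery rate. Npat, the activator of the histone clusters, stood at 0.16 (SE 0.18) on the log2 scale, and Hira, an H3.3 chaperone, at 0.24 (SE 0.20).

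Of 20 S phase genes, 16 were above and 4 below 0, where 50.6% of all tested genes were above 0, with 0 past the false discovery rate. At an unadjusted p under 0.05 1 of the 20 was higher, where 2.64% of all tested genes were. Cdc6, which loads the replicative helicase, had 44.5, 46.7, 90.9 and 49.7 CPM in agomir libraries and 35.1, 51.5, 33.3 and 34.5 CPM in controls, where control 2 lay within the agomir range (log2 fold change 0.59 ± 0.25, SE; edgeR quasi-likelihood test, unadjusted p = 0.0397, adjusted p = 0.762). The summed S phase level was 1641, 1893, 2326 and 1797 CPM in agomir libraries and 1737, 1576, 1589 and 1718 CPM in controls. Agomir 3 was highest in this sum, as in Slbp and in the sum of replication-dependent genes. The part of S phase, of mitochondrial share and of these libraries in the histone values was not tested. Of 20 RNAs without a poly(A) tail that could gauge the poly(A) selection, 0 were found in the table, so carry-over of tail-less RNA was not analysed here.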

How the data were processed

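Poly(A) RNA-seq of 8 blastocyst pools was used. Per the file headers, the deposited table gives a count and an FPKM for 22013 genes; the counts were taken for expected counts, the fractional kind RSEM gives, since 1212 of 176104 deposited values were not whole, and were rounded. The FPKM values are the authors' own. HISAT2 2.1.0, StringTie 1.3.1, RSEM, DESeq2 1.36.0 and fastp 0.18.0 are among the tools, and GRCm39 is the build, per the submitters' processing notes; not given in the sources used here are their roles, strandedness and the gene annotation. Genes passing filterByExpr (minimum count 10, minimum total 15; 12366 genes, 0.0862% of counts removed) were fitted with edgeR 4.0.16 in R 4.3.3 (TMM, robust quasi-likelihood F test, no covariate), with p-values adjusted by Benjamini-Hochberg over all tested genes. The procedure was tested on simulated data. The SE is the log2 fold change divided by the square root of F. Alternatives used limma 3.58.1 and DESeq2 1.42.0. P-values reflect only how these embryo pools vary.

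Named were the 8 replication-dependent genes of highest mean CPM, replacement variants with at least 1 CPM, and genes with an unadjusted p under 0.05 or groups that do not overlap. Members and lists were chosen with earlier results of these data known. Sequences and positions are from GENCODE M21 on GRCm38, matched by Ensembl identifier, and no coordinates were combined with GRCm39. Of the 83 genes, the authors' counting may split reads among copies: 53 of the 68 replication-dependent genes share some 150-base stretch with another gene, and 21 share at least 50% of theirs.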

Additional observations from a re-analysis of the deposited data

Results flagged for a closer look

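Of 58 sets of 4 libraries checked (each named histone gene or class sum in each group), 3 had a library far from the other 3 by Dixon's criterion; chance alone gives about 1 in 20. H1f10 was at 2.42 CPM in agomir 4, against 0.848 to 0.966 CPM in the other agomir libraries. H2ac23 was at 1.355 CPM in agomir 1, against 0.0483 to 0.145 CPM in the other agomir libraries. The summed level of the replication-dependent H3 genes was 15.5 CPM in control 3, against 20.4 to 21.4 CPM in the other controls.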

How the results depend on the processing

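In every setting run, 0 histone genes passed the false discovery rate. Over all genes, 0 passed in the edgeR and limma fits of all 8 libraries, 34 passed with DESeq2 (3 higher, 31 lower), and 0 to 1 passed when each library was left out in turn, the 1 without control 4. The summed replication-dependent level was -0.196 on the log2 scale without H2ac24, which is set by the gene left out and exposed to read division among its copies. Library totals moved the median of all genes to -0.109, and H3f3a to -0.0100. H2az2 was -0.0516 and -0.0520 in limma on log2(FPKM + 1) and log2(FPKM + 0.1). Leaving out 1 library at a time gave -0.258 (without agomir 4) to 0.416 for H1f10, -0.122 to 0.114 for H2aj (above 0 without agomir 2, agomir 4 or control 2), -0.634 to 0.0388 for H2ac13 and -0.499 to 0.0792 for H4c4 (both highest without control 4). Leaving out control 2 and agomir 3 together, an alternative added after seeing the data, gave 0.0370 for H2aj and -0.0115 for H3f3a. The cause was not tested. Between the agomir and control libraries of one replicate number, deviations from the group means correlated at -0.0942, -0.0439, -0.154 and 0.166. Whether libraries of one number shared a fertilisation was not tested. With the number as a block 0 genes passed and the replication-dependent median was -0.0980.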
